A study of Oryza sativa with 39 samples.

Results

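JH1 (Jiahua 1) is a Geng/japonica (GJ) rice variety that breeders obtained by conventional crossing of XS11 (Xiushui 11) with another variety. Transcript levels in its leaves were compared here with those of XS11, the parent. The difference between the lines is described, and the part of it due to crossing was not tested. The comparison used 6 of the 39 RNA-seq libraries of the series, 3 of JH1 and 3 of XS11. The study counts both lines as conventionally bred, and neither carries a transgene. Plants grew in the same glasshouse for 5 weeks, to the tillering stage, and each library was made from a pool of the second leaves of 5 plants. The p-values therefore measure the spread among such pools. For comparison, the levels in the other 11 lines are given where they bear on a locus. Of the GJ lines among them, CJ03 and T202 were bred by crossing XS11 with still other varieties, and KMD1 and KMD2 are independent transformants of XS11 with a synthetic cry1Ab insecticidal gene under the maize ubiquitin promoter. The 7 Xian/indica (XI) lines are MH63, its transformants T1C-19 (cry1C, maize ubiquitin promoter) and HH1 (fused cry1Ab/Ac, rice actin1 promoter), and SY63, XIY63, XXY63 and JY63, bred by crossing with MH63 as a parent, so they are related to each other. The other parent of JH1 was not analysed here, so alleles that JH1 received from it were seen only as differences from XS11.

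In a cross, each chromosome of the offspring is stitched together from long blocks of the parental chromosomes, because neighbouring loci are inherited together. After selfing, a line fixed for such blocks carries the donor allele at every locus inside a donor block and the parental allele elsewhere. Varieties of rice differ in sequence, in promoter activity and in the presence or absence of whole genes, so a donor block can contain loci that are read in only 1 of the lines. Reference loci of rice carry the chromosome and their order along it in the identifier (OS12G0222650 lies on chromosome 12), and this order was used to look for such runs of changed loci. No source used here pairs these identifiers with gene names, so the loci are given by identifier, without a role or a sequence.

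The 6 libraries held between 5141098 and 5675369 reads on genes, recovered from the steps of the deposited FPKM values (fragments per kilobase of transcript, scaled to library depth), and between 25303 and 26381 genes with a read. Across genes, Pearson's r of log2(FPKM + 1) was 0.943 to 0.965 between replicates and 0.888 to 0.924 between lines. Among these 6 libraries, XS11 replicate 3 stood apart in the listed defence loci. Its summed FPKM over 5 pathogenesis-related loci was 2067. The sum was 116 and 141 in XS11 replicates 1 and 2 and 60.5 to 97.9 in JH1. This library was also the highest of the 6 at the tested diterpenoid phytoalexin and phenylpropanoid loci given at the end. Without that library 422 differentially expressed genes (DEGs, defined next) were called, against 626 with it, and 440 to 538 were called without any other single library. The leaf origin could hardly be checked by markers. Of 6 loci listed as leaf markers, 2 were at 0 in all 39 libraries, and 3, including those 2, were at 0 in all 6 libraries of the pair. OS12G0291100 was read in all 6, at an FPKM between 74.5 and 312. OS12G0274700 (0 to 1.09) and OS09G0346500 (0 to 1.39) were near 0. Of all reference loci, 36.8% were listed at 0 in all 39 libraries, so a locus at 0 need not be a silent gene. The 3 root marker loci were at 0 in the 6 libraries, while OS03G0215400, listed as an inflorescence marker, was at 14.9 to 46.0. The listed seed markers OS10G0400200 and OS01G0762500 were at 0 to 0.363 and at 0.131 to 2.21.

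A gene was called a DEG when limma gave an adjusted p under 0.05 (Benjamini-Hochberg over all tested genes) and the fitted JH1/XS11 ratio was 2 or more, or 0.5 or less. Log2 fold changes were fitted to log2(FPKM + 1), a scale that compresses the change of genes with low FPKM. Changes printed as a fold are ratios of mean FPKM, often larger than the fitted change at low FPKM. Those given as at least a fold use a floor for the line without reads. JH1/XS11 gave 626 DEGs among 20332 tested genes (3.08%), of which 295 were higher in JH1 (1.45%) and 331 lower (1.63%). In all 626 the libraries of the lines did not overlap, which the call nearly fixes with so few libraries. Among all tested genes 3860 (19%) did not overlap. Over all tested genes the median log2 fold change was 0.0043, so the scaling left the bulk of genes level. Predicted genes of the authors' annotation supplied 309 DEGs and identifiers of Ensembl Plants 51. The reference loci, which can be placed on a chromosome, supplied 266 of 11553 tested (2.30%), with 112 higher (0.969%) and 154 lower in JH1 (1.33%). Their median absolute log2 fold change was 2.10. Changes were above 4 on this scale in 49 of them and below 2 in 119.

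The largest changes were between a strong signal and almost no reads. On/off genes were defined by the recovered reads: at most 1 read in every library of 1 line and at least 10 in every library of the other. Such genes numbered 248 of 33437 with a read in the pair (0.742%), 125 on in JH1 and 123 on in XS11. Among reference loci there were 93 of 19023 (0.489%), 45 on in JH1 and 48 on in XS11, and 85 of the 93 were also DEGs. The direction was thus near even. The line with the signal had a mean FPKM of 0.712 to 513 (median 4.75) for the loci on in JH1 and of 0.827 to 490 (median 8.76) for those on in XS11. Loss of a gene, silence of a gene and failure of reads from a diverged allele to be assigned to the reference locus cannot be told apart from these counts.

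Among reference loci, OS12G0222650 showed the largest increase. Its FPKM was 344, 645 and 550 in the JH1 libraries and 0 in each XS11 library, where 805 to 1327 reads stood against none. Set against a floor of 3 reads per library, JH1 was at least 354-fold higher (log2 fold change 8.96, SE 0.25, adjusted p 1.16e-06 by limma). OS09G0467700 was at 326, 430 and 349 in JH1 and at 0 in XS11, at least 501-fold higher (log2 fold change 8.52, SE 0.18). Here, too, the libraries of the lines lay far apart, and the 3 JH1 libraries lay closer together than at OS12G0222650. OS07G0294300 was at 243, 207 and 198 in JH1 and at 0 in XS11 (at least 165-fold higher). OS12G0239300 was at 182, 143 and 164 in JH1, while XS11 held a single read in replicate 2 (FPKM 0, 0.116 and 0). OS07G0297400 was at 78.5, 77.3 and 82.9 in JH1 and at 0 in XS11 (at least 214-fold higher).

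These 5 loci differed in how widely their JH1 state was found in the other GJ lines. OS12G0222650 was high in CJ03 and T202 (means of 446 and 438, n = 3 each). OS09G0467700 was high in CJ03 (288) but at 0 in T202, and OS12G0239300 was high in T202 (256) but at 0.0613 in CJ03. OS07G0294300 was at 0, 0 and 40.9 in the KMD1 libraries, so that a single library carried its mean there, had a mean of 0.312 in KMD2 and was at 0 in CJ03, T202 and all 7 XI lines. OS07G0297400 was at 0 in the other 4 GJ lines, and its highest mean in an XI line was 0.0424, so among the 13 lines it was read at an appreciable level in JH1 alone.

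In the opposite direction, OS05G0195901 fell from 481, 511 and 476 in XS11 to 0, 0 and 0.513 in JH1 (log2 fold change -8.74, SE 0.22, adjusted p 7.81e-07 by limma). The single JH1 read was in replicate 3. OS11G0141800 was at 305, 342 and 355 in XS11 and at 0.283, 0 and 0 in JH1. OS04G0651700 was at 208, 215 and 222 in XS11 and at 0 in JH1 (at least 239-fold lower). Each of these loci was steady across the XS11 libraries. OS12G0145566 was at 157, 149 and 158 in XS11 and had a single read in JH1, and OS06G0331500 was at 161, 137 and 152 in XS11 and at 0 in JH1 (at least 116-fold lower). For OS11G0141800, OS12G0145566 and OS06G0331500 all 4 other GJ lines were on as in XS11, with means between 98.5 and 346. OS04G0651700 was instead at 0.186 in CJ03 and 0 in T202, and OS05G0195901 at 0 in T202, so these GJ lines shared the low state with JH1.

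**Figure D1:**
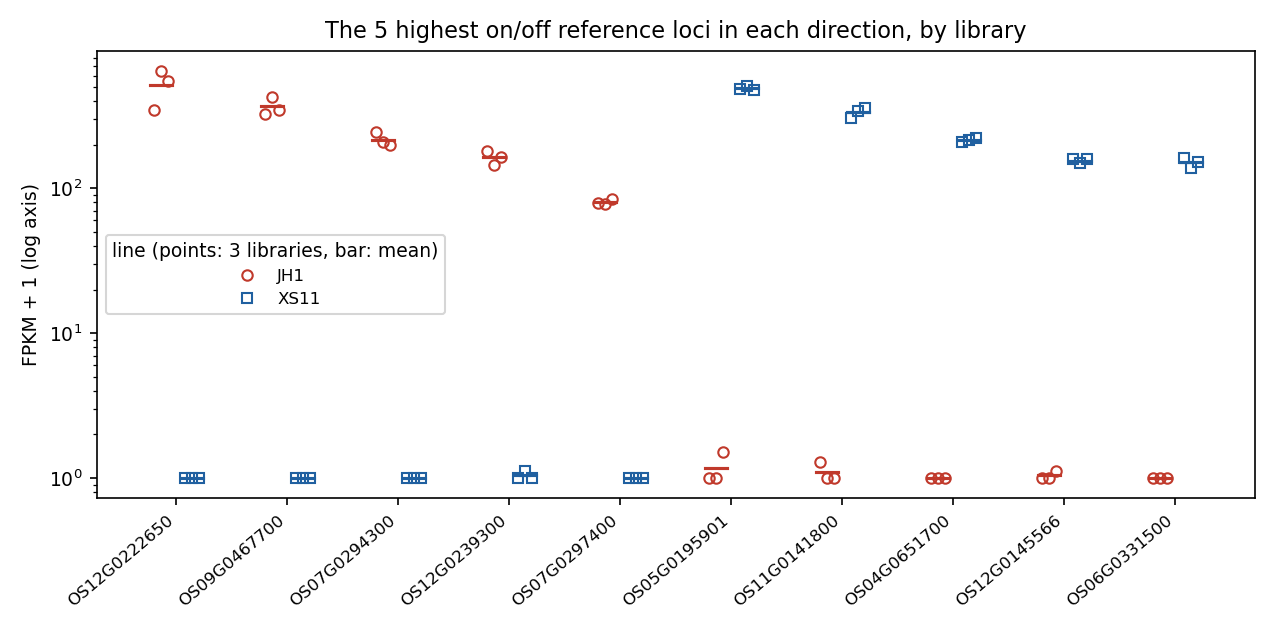
FPKM + 1 on a log axis of the 5 on/off reference loci with the highest mean in each direction, with the 3 libraries of each line as points and the line mean as a bar. On the left JH1 lies between 77.3 and 645 FPKM with XS11 at 0 or a single read, and on the right the lines change places.

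Large differences that missed the on/off rule had a few reads in the low line. OS07G0217600 was at 55.8, 120 and 116 in JH1 against 0, 0 and 0.717 in XS11, and here XS11 was the low line among the GJ lines, since KMD1, KMD2, CJ03 and T202 had means of 85.7, 57.3, 49.0 and 104. The XI lines were as low as XS11, with means of at most 0.148. OS11G0629400 was at 125, 77.3 and 105 in JH1 against 0.885, 0.881 and 0 in XS11. OS02G0825650 was at 0.424, 0.481 and 0 in JH1 against 269, 171 and 222 in XS11. Of the other loci among the 10 largest increases of reference loci, OS04G0321500 was at 38.6, 82.3 and 90.3 in JH1 with a single read in XS11. OS06G0312950 (54.9 to 60.8) and OS12G0146275 (48.2 to 56.0) were at 0 in all XS11 libraries, at least 33.9-fold and 50.0-fold higher in JH1. The pattern over lines varied again: OS06G0312950 was read in T202 (33.4) and in no XI line, while OS04G0321500 and OS12G0146275 were low in all 4 other GJ lines but at 117 to 477 and 27.3 to 51.8 in the XI lines. Among the 10 largest decreases of reference loci, OS11G0237700 (125, 127 and 158 in XS11), OS10G0170501 (63.8, 52.3 and 55.1) and OS01G0965201 (31.1, 59.2 and 42.0) had no read in JH1, at least 288-fold, 93.4-fold and 45.3-fold lower. OS02G0808500 was at 84.1, 130 and 151 in XS11 and at 0.218, 0 and 0.225 in JH1.

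The DEGs were unevenly placed. The share of tested reference loci that were DEGs was 0.394% on chromosome 3 (6 of 1523), 1.31% on chromosome 1 (21 of 1608) and 1.09% on chromosome 8 (8 of 737). It was 5.10% on chromosome 11 (32 of 628) and 8.85% on chromosome 12 (54 of 610), against 2.30% over all chromosomes. The remaining 7 chromosomes lay between 1.45% and 3.33%. Chromosome 12 also held 27 of the 93 reference on/off loci.

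Windows of 20 neighbouring tested reference loci with at least 5 DEGs were merged and trimmed to their outer DEGs, which gave 10 segments. They held 247 tested loci (2.14% of those tested) and 91 DEGs (34.2% of the reference DEGs), 44 higher and 47 lower in JH1. Outside them 175 of 11306 tested loci were DEGs (1.55%). Segments were chosen for their DEGs, so these shares describe them. The segments held 42 of the 93 reference on/off loci (45.2%). Since 85 of the 93 were themselves DEGs, this share too follows from how segments were chosen. Each segment held DEGs of both directions. The median absolute log2 fold change was 2.10 inside and 2.11 outside the segments. Segments depended on single libraries: the second of chromosome 4, the second of chromosome 10, that of chromosome 11 and the last of chromosome 12 were found in all 6 fits that left out a library. The others were found in 0 to 5 of them, with 4 to 8 segments in a fit.

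**Figure D2:**
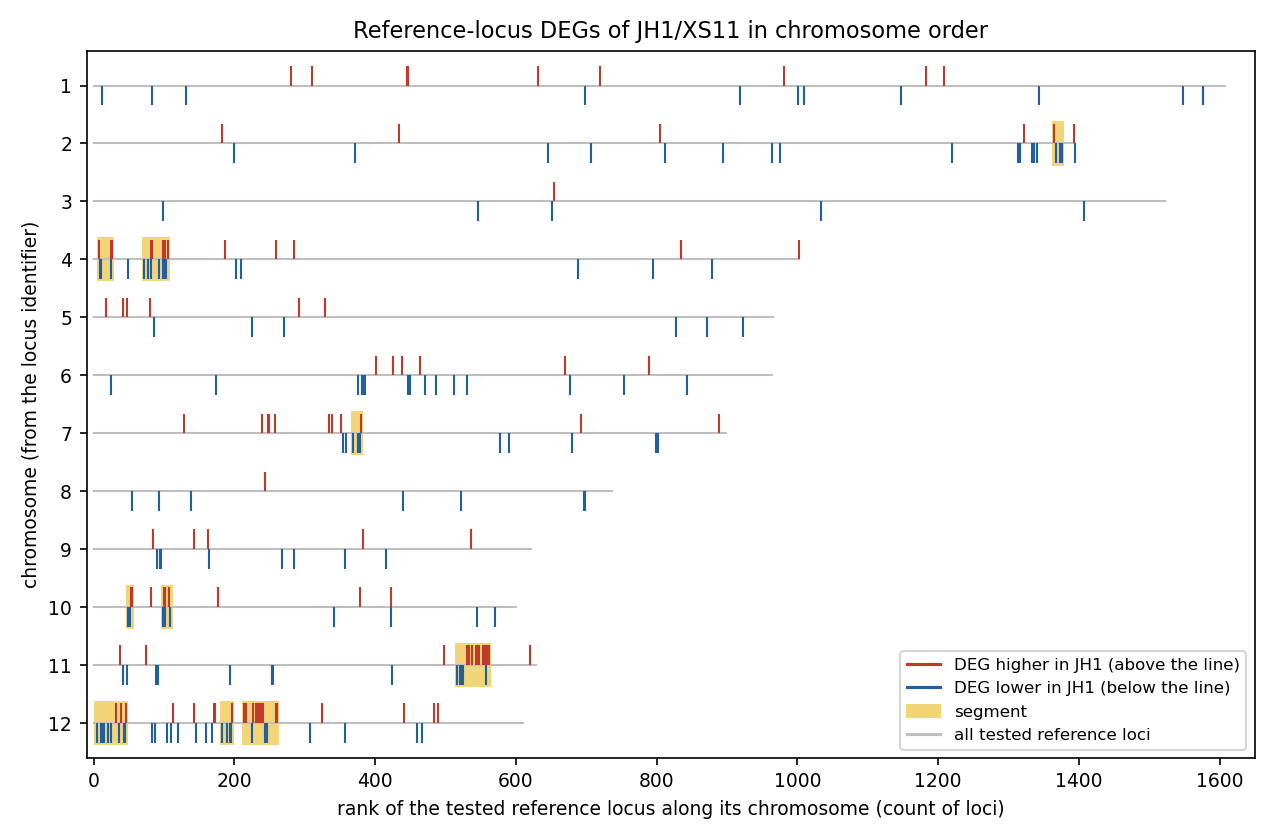
Reference-locus DEGs on the 12 chromosomes, placed by the rank of the tested locus along its chromosome (x axis, count of loci), with DEGs higher in JH1 drawn above each line, lower ones below, and the 10 segments shaded. Chromosomes 11 and 12 carry the widest groups of DEGs, whereas chromosome 3 has 6 DEGs and no segment.

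The segment with the most DEGs ran from OS11G0592900 to OS11G0635500 near the end of chromosome 11, with 18 DEGs among 46 tested loci (12 higher, 6 lower) and 10 on/off loci. It had 5 neighbouring tested loci in a row that were all DEGs. OS11G0629400 (given above) changed most among its loci of highest level. OS11G0592900 was at 5.42, 6.15 and 3.74 in JH1 against 53.2, 64.6 and 70.0 in XS11, 12.3-fold lower (log2 fold change -3.39, SE 0.22, adjusted p 7.98e-05 by limma). OS11G0629200 was at 86.2, 103 and 106 against 35.4, 36.0 and 36.1, 2.75-fold higher, and OS11G0604600 was at 88.6, 76.5 and 86.8 against 37.8, 46.9 and 36.0 (log2 fold change 1.05). The call on OS11G0604600 was lost without any of JH1 replicates 2 and 3 or XS11 replicates 1 and 3, with log2 fold changes of 0.98 to 1.11 there. All 5 DEGs from OS11G0592900 to OS11G0598200 were lower in JH1, and 12 of the 13 beyond them were higher.

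On chromosome 12, the segment from OS12G0204100 to OS12G0239900 held 16 DEGs among 47 tested loci, 13 higher and 3 lower, and 13 of the DEGs were on/off. It contains OS12G0222650 and OS12G0239300, given above. OS12G0222300 was at 11.2, 113 and 67.5 in JH1 and at 0 in XS11, at least 57.3-fold higher, with a wide spread in JH1 (log2 fold change 5.51, SE 0.73, adjusted p 0.0056 by limma). OS12G0239900 was at 48.1, 64.4 and 64.4 against 3.49, 2.31 and 7.83 in XS11, 13.0-fold higher. Of the 13 on/off loci, 11 were on in JH1 and 2 in XS11.

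The first segment of chromosome 12, OS12G0102600 to OS12G0118000, went mostly the other way, with 10 of 13 DEGs lower in JH1 among 43 tested loci and 6 on in XS11. OS12G0115300 was among the most abundant changed loci, at 258, 498 and 417 in JH1 against 1482, 856 and 1047 in XS11 (2.89-fold lower). OS12G0106000 was at 158, 181 and 246 against 522, 358 and 376 (2.15-fold lower). Both differences were close to the threshold (adjusted p 0.0298 and 0.0407 by limma), and the calls were lost in 6 and in 5 of the 6 fits that left out a library. OS12G0102600 was at 7.68, 21.1 and 13.6 against 137, 77.2 and 126 (8.03-fold lower), and OS12G0117900 was at 0 against 30.8, 21.4 and 35.4 (at least 27.0-fold lower). The beginnings of chromosomes 11 and 12 are a recent duplication in rice with near-identical gene pairs, whose reads counting can split or drop, so values of this segment are uncertain. On chromosome 11, the loci with the same numbers included 37 tested, of which 1 was a DEG, higher in JH1. Equal numbers need not mark duplicated partners, which were not paired here. Just beyond these numbers, OS11G0118600, OS11G0119311 and OS11G0121600 were DEGs lower in JH1 (log2 fold changes -2.02, -2.61 and -1.14), and OS11G0135400 was higher (2.92). The next segment on chromosome 12, OS12G0177500 to OS12G0188500, had 5 DEGs among 15 tested loci. OS12G0177500 was at 58.9, 76.3 and 61.1 in JH1 against 161, 164 and 153 in XS11 (2.43-fold lower). OS12G0181900 had a mean of 0.542 against 2.39 (4.41-fold lower, log2 fold change -1.14). OS12G0185900 was at 0.0879, 0.349 and 0 in JH1, from 2, 7 and 0 reads, against a mean of 2.45 in XS11. That is 16.8-fold lower by means, with a log2 fold change of -1.59. OS12G0188500 was at 3.36, 4.07 and 4.06 against 0.126, 0.126 and 0.

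Chromosome 4 had a pair of segments at its start. From OS04G0172560 to OS04G0208450, 12 of 34 tested loci were DEGs (5 higher, 7 lower). OS04G0208450 was at 19, 70.4 and 51.6 in JH1 against 0, 0.455 and 2.77 in XS11 (43.7-fold higher), and OS04G0205101 was at 1.04, 0 and 2.70 against 38.8, 22.8 and 22.6 (22.5-fold lower). OS04G0172560 was at 0 against 30.1, 21.9 and 25.5 (at least 26.2-fold lower). OS04G0204400 was at 16.8, 11.3 and 14.8 against 5.74, 3.81 and 4.51 (3.06-fold higher). From OS04G0103601 to OS04G0111250, 6 of 19 tested loci were DEGs, none of them on/off. OS04G0103601 was at 54.7, 99.4 and 64.6 against 11.9, 10.9 and 16.2 (5.62-fold higher), OS04G0110600 was 8.12-fold higher, and OS04G0103700 and OS04G0104900 were 3.90-fold and 4.93-fold lower. This segment was not found in any of the 6 fits that left out a library.

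Chromosome 10 had a pair of short, dense segments. Between OS10G0135700 and OS10G0138100, 5 of 6 tested loci were DEGs. OS10G0138100 was at 9.93, 15.7 and 12.9 in JH1 against 0, 0 and 0.128 in XS11, and OS10G0137700 was at 3.15, 3.00 and 3.78 against 0 (at least 7.76-fold higher). The neighbours on their other side went down, OS10G0136200 from 10.9, 11.7 and 10.9 in XS11 to 0.373, 1.48 and 0.290 in JH1 (15.7-fold) and OS10G0136100 from 6.71, 6.97 and 6.66 to 0.0531, 1.33 and 0 (14.7-fold). In both, JH1 replicate 2 held most of the reads of its line. Between OS10G0170501 and OS10G0183800, 6 of 12 tested loci were DEGs, and 4 were on/off. OS10G0178500, an abundant transcript, was at 198, 123 and 256 in JH1 against 439, 465 and 465 in XS11 (2.37-fold lower, adjusted p 0.0352 by limma, lost in 4 of the 6 fits that left out a library). OS10G0170501 is given above, OS10G0183800 was at 0 against 3.23, 6.13 and 4.05 (at least 10.3-fold lower), and OS10G0180600 was at 7.31, 10.1 and 9.25 against 0, 0.911 and 0.

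The remaining segments held 5 DEGs each. On chromosome 7, from OS07G0446000 to OS07G0452801, OS07G0450100 was at 0 in JH1 against 16.2, 13.9 and 15.6 in XS11 (at least 46.5-fold lower). OS07G0449100 was at 13.9, 19.8 and 17.8 against 81.9, 71.2 and 74.5 (4.42-fold lower), OS07G0452700 was 6.48-fold lower and OS07G0452801 3.39-fold higher. On chromosome 2, from OS02G0824800 to OS02G0828500, OS02G0824800 was at 18.9, 20.6 and 22.4 in JH1 and at 0 in XS11 (at least 47.3-fold higher). OS02G0828400 was at 2.35, 1.41 and 1.57 against 10.3, 10.7 and 11.5 (6.09-fold lower), and OS02G0828500 at 20.5, 8.42 and 10.3 against 57.0, 64.8 and 37.9 (4.07-fold lower, a call lost in 5 of the 6 fits that left out a library).

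The other 4 GJ lines gave libraries that the choice of the DEGs had not used. The study names XS11 as the near isoline of KMD1 and KMD2, but reports more DEGs against XS11 in KMD2 than in KMD1. CJ03 and T202 received alleles from another parent. For every DEG, the level of a line was expressed on the log2(FPKM + 1) scale relative to XS11 (0) and JH1 (1), so that above 0.5 the line was nearer JH1. Of the 266 reference DEGs, the line mean was nearer JH1 for 43 in KMD1 (16.2%), 109 in KMD2 (41.0%), 131 in CJ03 (49.2%) and 117 in T202 (44.0%). KMD1 was thus mostly like XS11 at the loci that set JH1 apart. CJ03, T202 and KMD2 were nearer JH1 at a larger part of them. By this count KMD2 lay closer to CJ03 and T202 than to KMD1, for a reason not tested. At 18 of the 266 all 4 lines were nearer JH1, so that XS11 was the outlying GJ line there. The ends of the scale were the XS11 and JH1 means that also chose the DEGs. A chance extreme in XS11 moves all other lines toward JH1, and an extreme in JH1 moves them toward XS11. Such counts can thus follow in part from the choice of DEGs. These counts are descriptions without a test. At 61 DEGs (22.9%) all 4 lines were nearer XS11, and at 49 of these at least 1 of the 7 XI lines was nearer JH1. That loose condition was also met at 40 of the 48 loci on in XS11 and at 25 of the 45 on in JH1. Its share over all reference DEGs was not computed, so the 49 are not a trait of these 61.

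In several segments a line was near 0 or near 1 over most of the neighbouring DEGs. The median relative level over the DEGs of a segment was taken in each library. In the second chromosome 10 segment it was 0.02 to 0.03 in the 3 KMD1 libraries, 0.70 to 1.01 in KMD2, 1 in CJ03 and 0.92 to 1.01 in T202. In the second chromosome 4 segment it was 0.65 to 0.89 in KMD2, 0.96 in CJ03 and 0.02 to 0.13 in T202. The chromosome 7 segment had 1 to 1.1 in CJ03 and 0.85 to 1 in T202, with both KMD lines at or below 0.20. For the chromosome 12 segment from OS12G0204100, KMD1 and KMD2 were at 0 in every library, CJ03 between 0.37 and 0.70, and T202 between 0.92 and 0.97, with all 16 DEGs nearer JH1 in T202. The lines differed from segment to segment in which of them were near JH1. Replicates of a line mostly lay on the same side of 0.5, except CJ03 in the last of these segments and KMD2 in the chromosome 11 segment, whose library medians were 0.34, 0.57 and 0.65.

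In 3 segments the median of every other GJ line was near XS11, but each of these segments was found in 1 of the 6 fits that left out a library. Over those fits, 4 to 5 of the 5 DEGs on chromosome 2, 7 to 9 of the 13 and 2 to 5 of the 5 on chromosome 12 were still called. On chromosome 2 the library medians ran from -0.06 to 0.13, in the first chromosome 12 segment from 0.08 to 0.25, and from OS12G0177500 to OS12G0188500 from -0.14 to 0.20. All 5 DEGs of the last of these were nearer XS11 in each of the 4 lines. The other 2 were less uniform. On chromosome 2, OS02G0824800 was at 7.07, 0 and 16.9 in KMD1 and at 12.3, 13.3 and 22.0 in KMD2, but near 0 in CJ03 and T202. KMD2 was also nearer JH1 at OS02G0825650 (relative level 0.80, with FPKM of 28.5, 0.341 and 0.196), and CJ03 at OS02G0828500 (0.55). In the first chromosome 12 segment CJ03 was nearer JH1 at 5 of the 13 DEGs, T202 at 3, KMD2 at 2 and KMD1 at 1. In the first chromosome 4 segment, KMD1 stayed between -0.02 and 0.01, KMD2 lay between 0.44 and 0.48, and CJ03 and T202 between 0.68 and 0.89.

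Locus by locus, some lines changed state inside a segment. In the chromosome 11 segment T202 was between -0.19 and 0.21 at the 5 DEGs from OS11G0592900 to OS11G0598200 and between 0.63 and 1.08 at the 4 from OS11G0604600 to OS11G0611100. KMD2 did the reverse further along: it was between 0.75 and 1.09 at the 9 DEGs up to OS11G0611100 and between 0 and 0.41 at the 9 beyond. OS11G0615600, singled out after its values were seen, was high in JH1 (mean 43.8) and at most at 0.10 on the relative scale in all 4 lines. In the first chromosome 10 segment CJ03 was between -0.53 and -0.05 at OS10G0135700, OS10G0136100 and OS10G0136200 and above 1 at OS10G0137700 and OS10G0138100 (1.61 and 1.17), while T202 was nearer JH1 at 4 of the 5. These loci too were described after their values were seen, and the places where a line changes state were not tested.

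**Figure D3:**
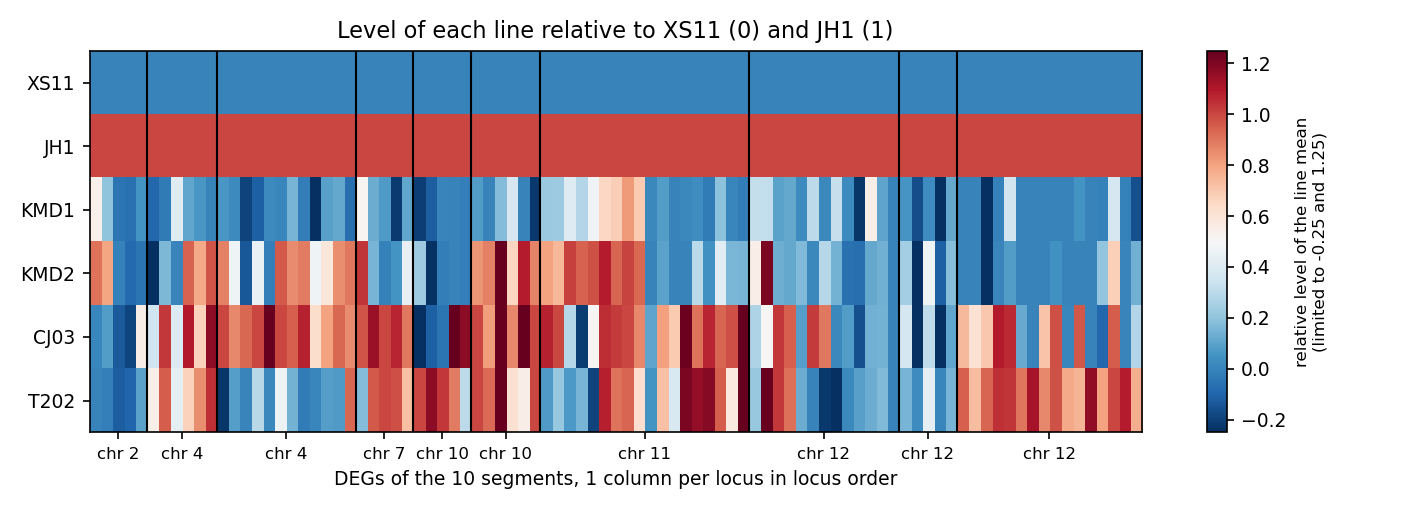
Relative level of the line mean on the log2(FPKM + 1) scale (colour, limited to -0.25 and 1.25) at the 91 DEGs of the 10 segments in locus order, where XS11 is 0 and JH1 is 1 by construction. KMD1 is nearer XS11 at 84 of the 91, and CJ03 and T202 are nearer JH1 at 59 and 50, in runs that differ between segments.

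On/off loci divided in the same way. Of the 45 on in JH1, 8 were nearer JH1 in KMD1, 12 in KMD2, 22 in CJ03 and 24 in T202, and 13 were nearer XS11 in all 4. Of the 48 on in XS11, 2 were nearer JH1 in KMD1, 18 in KMD2, 25 in CJ03 and 17 in T202, and 15 were nearer XS11 in all 4. All 7 XI lines were nearer JH1, that is low, at 32 of the 48 loci on in XS11. All 7 were nearer JH1, that is on, at 9 of the 45 loci on in JH1. At least 1 XI line was nearer JH1 at 25 of the 45, and at the rest all 7 were nearer XS11, that is low. Low levels in the XI lines were thus common in both directions. Outside the segments, the median relative level over the 175 DEGs lay between 0.07 and 0.13 in KMD1, 0.34 and 0.38 in KMD2, 0.29 and 0.43 in CJ03 and 0.14 and 0.51 in T202.

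Pathways were described through short lists of loci drawn up by identifier. Phenylpropanoid metabolism begins with the deamination of phenylalanine and leads to lignin and to phenolic defence compounds. The study reported phenylpropanoid biosynthesis and phenylalanine metabolism as enriched among its JH1/XS11 DEGs, so the list is not independent evidence. That analysis used DESeq2 and KEGG pathways (sets of annotated genes), and the list covers only a part of such a set. Calls at the listed loci therefore do not stand for the pathway. Of the 7 loci on the list, 2 were at 0 in all libraries and 5 were tested. None of the 5 was a DEG (adjusted p 0.0841 to 0.382 by limma), against 3.08% of all tested genes. All 5 had a negative log2 fold change, with a median of -1.39, against 0.0043 over all tested genes. OS02G0626100 was at 53.5, 33.2 and 35.4 in JH1 against 118, 62.6 and 135 in XS11. OS02G0626400 was at 14.8, 7.38 and 9.35 against 22.5, 22.5 and 43.9, and OS02G0627100 was at 0.790, 0.449 and 1.47 against 7.04, 2.93 and 18.4. The libraries of the lines did not overlap at these 3 loci or at OS05G0427400 (1.61 to 3.48 against 5.25 to 15.7), as in 19% of all tested genes, and XS11 replicate 3 was highest at each. The number of DEGs depended on the fit: 2 with voom on recovered reads, 3 with the 18 GJ libraries in 1 model, 1 with a replicate block and 2 without XS11 replicate 2.

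Pathogenesis-related proteins accumulate in rice leaves under attack or stress. All 5 listed loci were tested and none was a DEG, beside 3.08% of all tested genes, with log2 fold changes from -3.25 to -1.28 (adjusted p 0.350 to 0.528 by limma). XS11 replicate 3 was the highest library of the pair at each and held most of the XS11 signal. At OS01G0382000 alone of the 5, the libraries of the lines did not overlap, as in 19% of all tested genes. OS01G0382000 was at 7.39, 21.5 and 5.02 in JH1 and at 37.0, 22.5 and 1104 in XS11. Outside the pair it was also high in KMD1 replicate 3 (1170) and had a mean of 258 in MH63, against 12.2 in KMD2 and 4.67 in T202. OS07G0129200 was at 1.79, 0 and 0.617 in JH1 and at 1.34, 5.68 and 151 in XS11, and OS12G0555500 was at 58.9, 57.9 and 38.5 against 52.7, 77.1 and 474. XS11 replicate 3 was also the highest of the pair at all 3 tested loci of the diterpenoid phytoalexin list (8 loci, enzymes of antimicrobial compounds of rice). The sum over that list was 20.4 there and 2.42 to 4.75 in the other 5 libraries. None of these 3 was a DEG, beside 3.08% of all tested genes (median log2 fold change -0.77). The part of this library's state in the phenylpropanoid values was not tested.

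**Figure D4:**
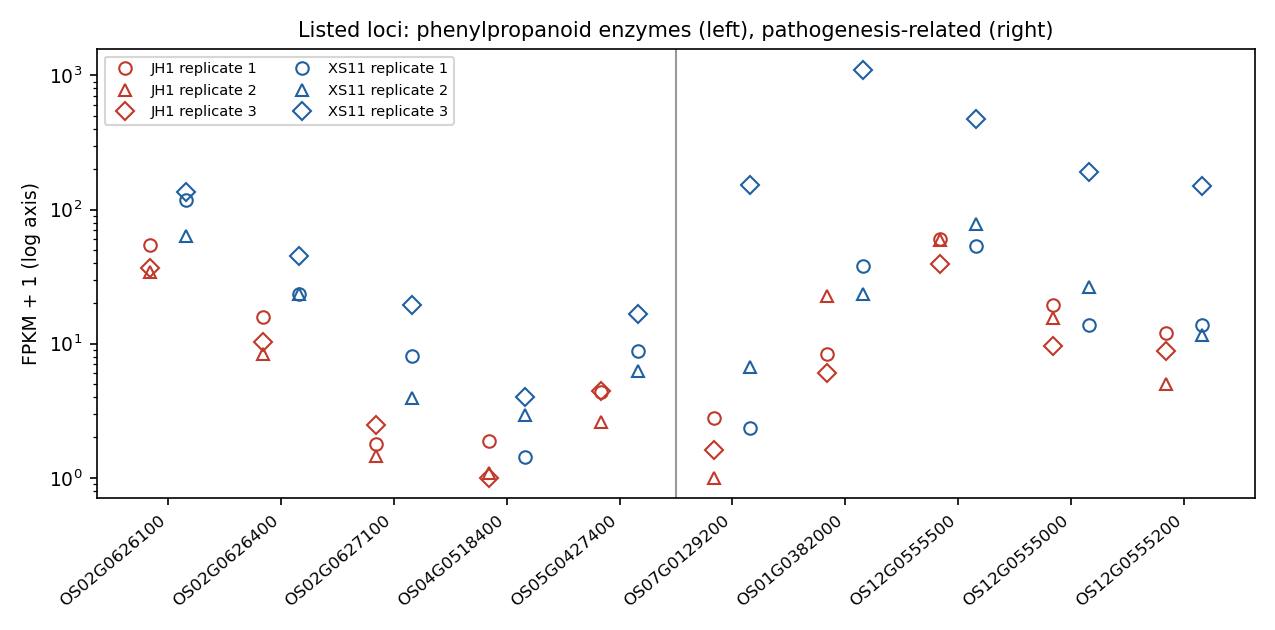
FPKM + 1 on a log axis of the 5 tested phenylpropanoid loci (left of the line) and the 5 pathogenesis-related loci (right), 1 point per library, with a symbol for each replicate number. XS11 replicate 3 (blue diamonds) is the highest point at all 10 loci, and reaches 1104 FPKM at OS01G0382000.

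Clock and heading date loci set the daily rhythm and the flowering time of rice. Of 18 on the list, 10 were at 0 in all 39 libraries and 6 were tested. None was a DEG, beside 3.08% of all tested genes, and their median log2 fold change was -0.14. OS08G0174500 was at 19.1, 26.6 and 33.5 in JH1 and at 75.1, 40.4 and 58.3 in XS11, libraries that did not overlap, as in 19% of all tested genes (adjusted p 0.111 by limma).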

How the data were processed

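Total RNA of leaf pools was sequenced in 3 libraries per line. Per the labels and the study's methods, the authors aligned reads with HISAT2 2.09 to IRGSP-1.0, counted them with featureCounts 1.5.0-p3 and deposited FPKM values per gene and library. The deposited FPKM values step in whole reads for given gene lengths: all 1036152 values above 0 came out whole within 0.01 read, so reads, depth and relative length were recovered. Reads over the total that the deposited scaling implies were 0.987 to 1.17 in the 6 libraries, so the scaling between them was not by plain totals.

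Genes that reached an FPKM of 0.5 in 3 or more of the 6 libraries entered limma 3.58.1 (R 4.3.3) on log2(FPKM + 1), a pseudocount of 1, with a variance trend over mean log2 recovered reads and Benjamini-Hochberg adjustment. Since the unit is FPKM, no count model was the main test; voom on recovered reads was an alternative. The script was tested on simulated data. In fits that left out a library the minimum applied to 2 libraries, because with 3 a gene read only in the smaller line could not have entered. Other tables were made with Python 3.11.15 and pandas 2.3.3.

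Named loci were, by rule and among reference loci only, the 10 DEGs with the largest change in each direction (libraries of the lines not overlapping, mean FPKM of at least 5 in the higher line), the 5 on/off loci of highest level in each direction, and up to 4 DEGs of highest level per segment. A repeat of the rule gives 55 loci. Lists and members were chosen with earlier results of these data known. Only 4 lists given by locus identifier, drawn up from general knowledge, and the marker loci could be applied, since 18 lists by gene description had no descriptions to match. Replicates with the same number were checked for pairing and did not pair.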

Additional observations from a re-analysis of the deposited data

How the results depend on the processing

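Across other pseudocounts, filters, variance trends, scaling and fits, the number of DEGs lay between 428 and 866, and 418 to 598 of the 626 DEGs were also called. Leaving out each library in turn gave 422 to 538 DEGs (205 to 246 higher and 217 to 292 lower in JH1), 166 to 232 reference DEGs, 4 to 8 segments and 40 to 59 DEGs in segments. The fewest DEGs were called without XS11 replicate 3, and the fewest segments without XS11 replicate 2. Of the 91 segment DEGs, 63 to 77 were still called in those fits, which test fewer libraries. With the replicate number as a replicate block, 428 DEGs were called, 190 of them higher in JH1. Same-numbered libraries deviated with r of -0.16, -0.11 and 0.039, so the numbers did not pair them, and the cause of the lower count was not tested. Windows of 40 loci with at least 8 DEGs gave 5 segments (77 DEGs), windows of 20 with at least 4 gave 15 (125 DEGs), and voom on recovered reads gave 15 segments with 155 DEGs, from 345 reference DEGs. No named locus reversed. Among loci whose calls were not described above as lost, the call was lost for OS04G0103700 without JH1 replicate 3 or any 1 of the XS11 libraries, for OS04G0104900 without JH1 replicates 1 or 2 or XS11 replicates 1 or 3, and for OS04G0204400 without JH1 replicate 3 or XS11 replicates 2 or 3. It was also lost for OS12G0181900 in each of these fits except that without JH1 replicate 1, for OS12G0185900 without XS11 replicates 2 or 3, and for OS12G0222300 with voom (log2 fold change 7.87). Other settings lost calls too, with the direction kept: the replicate block lost 6 of the 55 named loci (OS04G0104900, OS10G0178500, OS11G0604600, OS12G0115300, OS12G0106000 and OS12G0181900), no filter on low values lost 5 (OS02G0828500, OS04G0104900, OS10G0178500, OS12G0115300 and OS12G0106000), and the default trend (OS04G0104900), the 18 GJ libraries in 1 model (OS12G0106000) and plain read totals (OS10G0178500) lost 1 each. On/off genes numbered 181 when the off line had to be at 0 reads and 347 when 5 reads counted as on. Recovered reads include no molecular identifiers, so floors cover counting error only.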
